A study of Mus musculus with 16 samples.

Results

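The 109 genes described here are those that the deposited expression table places on human chromosome 21, out of 13807 genes in all, of which 13698 lie on mouse chromosomes. They were chosen by their identifier alone, which begins with chr21, a name that no mouse chromosome has. TcMAC21 mice, a model of Down syndrome, have all mouse chromosomes and an extra one, a mouse artificial chromosome into which most of human 21q was placed. Poly(A) RNA of whole cerebella was sequenced at postnatal day 6 (P6), in 4 TcMAC21 pups and their 4 euploid littermates on a C57BL/6J (B6) and DBA/2J (D2) background, and in 4 Ts65Dn pups and their 4 euploid littermates on a C57BL/6J and C3H/HeJ background. The 12 pups other than TcMAC21 have no human chromosome. Ts65Dn mice instead have extra copies of mouse genes, many of them orthologs of human chromosome 21 genes. The artificial chromosome also carries a GFP gene, by which carriers were told apart, and is reported to have deletions, so some human genes are missing from the model. Pups came from more than 1 litter per cross, as pairs of a trisomic pup and a euploid littermate.

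Human chromosome 21 is present in an additional copy in Down syndrome, in which the cerebellum is disproportionately small. In the first postnatal weeks of the mouse, granule cells, the most numerous neurons of the brain, arise by division in the outer layer of the cerebellum and then migrate inwards. In TcMAC21 cells the human genes are transcribed by mouse cells, beside the mouse orthologs, and RNA-seq can separate both only where the sequences of the species differ within a read. Reads were mapped to the mouse genome and the human chromosome together.

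Each identifier is made of a chromosome and a number, and the deposited table does not pair it with gene symbols, positions or lengths. The role of a gene, its sequence and its mouse ortholog thus cannot be given here, and tissue markers could not be checked. Genes are called below by their place, from 1 to 109, in the order of the number. The human numbers ran from 6 to 8315, below the lowest number on mouse chromosome 1, which was 8362, and the ranges of the 22 chromosomes listed did not overlap. What the number stands for is not stated, and its use as an order along human chromosome 21 is an assumption. The median step between neighbouring human genes was 32 numbers, 8 neighbours were 1 number apart, and the largest step, of 1529 numbers, lay between the genes at places 2 and 3.

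Values are normalized counts, that is the reads of a gene divided by a size factor of the library, and 1 read was worth between 0.541 and 2.21 normalized counts. Reads counted on genes ranged from 6317856 to 25719969 over the 16 libraries. The TcMAC21 libraries held 20225316, 18693206, 15860819 and 7704334 reads in replicates 1 to 4, so replicate 4 was the shallowest of its group. Replicate 4 also stood apart over mouse genes. The SD over mouse genes of its log2 ratio to the group mean was 0.46, against 0.24 to 0.29 in the other 3 animals. Summaries over genes of the spread between TcMAC21 animals are therefore given with and without it. Other TcMAC21 values, such as those of single genes, rest on replicates 1 to 4 unless stated.

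Human chromosome 21 genes took a small and similar share of the counts in the TcMAC21 cerebella. The summed normalized count of the 109 genes was 48003, 49443, 50423 and 61687 in replicates 1 to 4, with replicate 4 above the other 3. As a share of all reads counted on genes, this was 0.336% (95% exact binomial interval 0.3333 to 0.3384), 0.339% (0.3369 to 0.3421), 0.339% (0.3357 to 0.3414) and 0.405% (0.401 to 0.41). These intervals and the limits for genes without reads cover counting error only. The summed normalized count was 187-fold that of euploid littermates, in which it was 330, 338, 249 and 205. No TcMAC21 pup overlapped with a littermate (two-sided exact permutation test, p = 0.0286, the smallest that 4 animals against 4 allow, and 0.0857 after Benjamini-Hochberg adjustment over the 3 comparisons of this sum). This separation follows from the design, since only TcMAC21 pups carry the human chromosome, and is no further evidence.

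All 109 genes had reads in every TcMAC21 pup, with at least 8 reads and a normalized count of at least 14.13. The mean normalized count over the 4 pups had a median of 234.3 over genes and ran from 18.9 to 7077, a 374-fold range. The lower and upper quartiles were 96.9 and 574. A mean of at least 1000 was found for 9 genes, a mean from 100 to 1000 for 70 genes and a mean under 100 for 30 genes. For comparison, the median over all 13698 mouse rows in the same pups was 427, and 35.4% of them lay under the human median. The human genes lie on the extra chromosome only, and these counts are not adjusted for copy number. By which rule genes were judged detectable is not stated, and human genes outside these 109 are not analysed here. Gene lengths are not in the table, so the order of counts given below is an order of reads and not of transcript numbers.

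**Figure D1:**
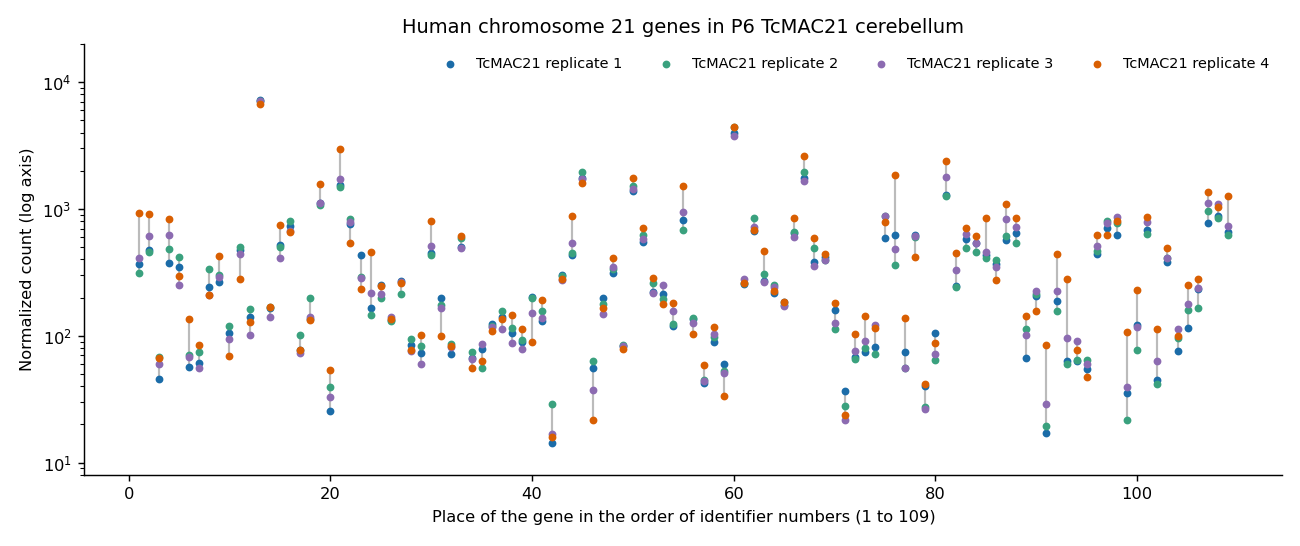
Normalized count (log axis) of each of the 109 human chromosome 21 genes in the 4 TcMAC21 pups, with genes along the x axis in the order of their identifier number. A grey line joins the lowest and the highest pup, and the genes at places 13 and 60 stand above all others in every pup.

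The most abundant gene, chr21.2722 at place 13, had a normalized count of 7239, 7120, 7165 and 6783 in TcMAC21 replicates 1 to 4. Its mean was 7077 ± 202 (SD, n = 4), and it alone took 13.7% ± 1.82 (SD, n = 4) of the human sum. Place 60 followed with 3973, 4411, 3741 and 4401, a mean of 4132 ± 331 (SD, n = 4) and 7.94% ± 0.815 (SD, n = 4) of the sum. These genes did not overlap with each other or with the next gene in any pup. Below them the order was less firm. Place 67 had 1770, 1943, 1672 and 2606, and the gene at place 21 had 1533, 1494, 1731 and 2958, so that their order differed between pups. The gene at place 45, the next by its mean, had 1756, 1964, 1713 and 1611. It was lowest in replicate 4, in which the genes at places 67 and 21 were highest. Of the 108 pairs of neighbours in the order of the means, 106 had overlapping ranges over the 4 pups.

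The 10 most abundant genes took 44.7% ± 0.742 (SD, n = 4) of the human sum, from 43.7% to 45.4% in single pups, and the 20 most abundant took 59.7% ± 0.523 (SD, n = 4). The sum was thus carried by few genes to a similar extent in each pup, although the share of the gene at place 13 alone ran from 11%, in replicate 4, to 15.1%. Across genes, the order of counts in 2 pups correlated with a Spearman's rho between 0.905 and 0.983. Genes are not independent replicates, and these values are a description.

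At the low end, the gene at place 42 had a normalized count of 14.1, 28.8, 16.9 and 15.8 in replicates 1 to 4. With a mean of 18.9 ± 6.71 (SD, n = 4) it was the least abundant, with a coefficient of variation (CV) of 35.5%, against 23.6% from counting alone. The genes at places 71 and 79 had means of 27.5 ± 6.71 and 33.8 ± 8.16 (SD, n = 4). For places 91 and 20 the means were nearly equal, 37.6 ± 32.0 and 37.8 ± 11.9 (SD, n = 4), while their spread between pups differed. The mean at place 91 leans on replicate 4, with 84.91 against 16.96 to 29.11 in the other pups.

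Counts showed little relation to the place of a gene. Spearman's rho of the mean with place was 0.06 over the 109 genes. With the genes split by place into 4 stretches, the median of the gene means was 251 over places 1 to 28, 159 over places 29 to 55, 234 over places 56 to 82 and 346 over places 83 to 109. The first stretch, which holds the gene at place 13, took 33.2% ± 1.28 (SD, n = 4) of the human sum. The second took 17.9% ± 0.486, the third, with the gene at place 60, 27.7% ± 0.94 and the last 21.1% ± 1.56 (SD, n = 4 each).

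The spread of human genes between TcMAC21 pups was near that of mouse genes in the same animals, with a somewhat higher median. The CV over the 4 pups had a median of 19.4% over the 109 human genes, and of 17.6% over the 13427 mouse genes whose mean in these pups was 10 or more normalized counts. After removal of counting error the medians were 17% and 15.6%. A CV over 30% was found for 28 human genes (25.7%), against 20.1% of mouse genes, and a CV under 5% for 6 human genes (5.5%), against 3.57% of mouse genes. For 10 human genes (9.17%) the spread was no larger than counting error, as for 7.54% of mouse genes. A single pup decided the size of these values. Without replicate 4 the median CV fell to 12.3% for human and 10.3% for mouse genes, and to 11.1% and 8.35% after removal of counting error. Only 1 human gene kept a CV over 30%, against 4.57% of mouse genes, but 24.8% of human and 13.6% of mouse genes had a CV over 20%. A CV under 5% was then found for 17 human genes (15.6%), against 16.1% of mouse genes. The spread was no larger than counting error for 20 human genes (18.3%) and for 16.2% of mouse genes.

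**Figure D2:**
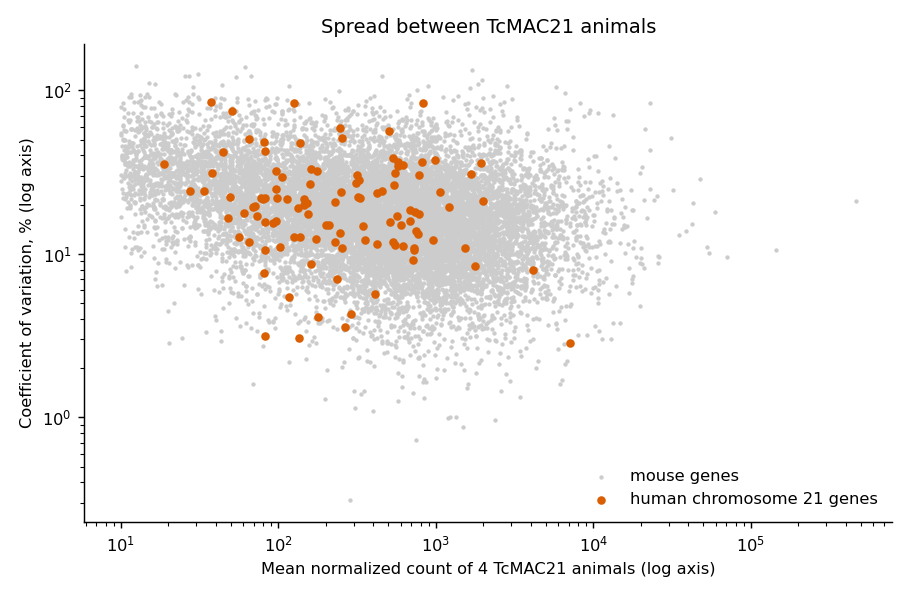
Coefficient of variation over the 4 TcMAC21 pups against the mean normalized count (both log axes), with 1 point per gene, orange for the 109 human chromosome 21 genes and grey for 13427 mouse genes. The human points lie within the cloud of mouse genes, and the gene at place 13, farthest right in orange, has a CV of 2.86%.

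The steadiest genes covered a wide range of counts. Place 13 had the smallest CV of all, 2.86%, against 1.24% from counting. Place 26 had 133, 130, 140 and 134 in replicates 1 to 4, with a CV of 3.08%, and the gene at place 49 had 83.4, 84.9, 83.6 and 79.0, with a CV of 3.12%. Places 61 and 65 followed with CVs of 3.59% and 4.10%. Of these, only the gene at place 13 had a CV above counting error, which was 9.06%, 11.5%, 6.45% and 7.87% for the other 4. The genes whose values over the 4 pups were most like those at place 13 were at places 49, 36 and 61. Their root mean square difference from it was 0.02, 0.04 and 0.05 on the log2 scale, over 4 pups, after the median of each pup and the mean of each gene were removed. The spread of these 3 genes was below their counting error, which was 11.5%, 9.58% and 6.45% as a CV, so their likeness to place 13 reflects low spread in all 4 genes and their order is not resolved at this depth.

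The 5 genes with the largest spread were all highest in replicate 4. At place 76 there was a normalized count of 627, 362, 479 and 1860 in replicates 1 to 4, so that replicate 4 was 2.97-fold the highest of the other pups. Place 93 had 62.90, 59.99, 96.72 and 280.38, the gene at place 91 had 16.96, 19.48, 29.11 and 84.91, and the gene at place 99 had 35.3, 21.8, 39.4 and 107. At place 24 the values were 164, 146, 217 and 458. The CVs of these 5 genes ran from 58.6% to 85.0%, with 4.18% to 19.8% from counting, and in all 5 replicate 4 was more than 2-fold above each of the other 3 pups.

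Replicate 4 was the highest of the 4 pups for 58 human genes (53.2%) and the lowest for 22 (20.2%). Among mouse genes it was the highest for 39.6% and the lowest for 39.3%. It was at least 1.5-fold above each of the other pups for 19 human genes (17.4%), at places 1, 6, 21, 24, 30, 44, 55, 63, 73, 76, 77, 85, 91, 92, 93, 99, 100, 102 and 109. Among mouse genes 11.7% were at least 1.5-fold above the other pups in replicate 4. In replicates 1, 2 and 3, at most 1 human gene and at most 0.514% of mouse genes stood above the rest to this extent. Of the 19 genes, 8 were among the 27 genes at places 83 to 109, 4 each among places 1 to 28 and 56 to 82, and 3 among places 29 to 55. In the other direction, 5 human genes were at least 1.5-fold below each of the other pups in replicate 4, as were 9.05% of mouse genes. One of these, the gene at place 46, had 55.8, 63.1, 37.6 and 21.7 in replicates 1 to 4, and the gene at place 40 had 201, 199, 150 and 88.9.

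In the third and last stretches of places above all, human genes were also shifted upwards in replicate 4. Its normalized count over the mean of the other 3 pups had a median of 1.22 over the 109 human genes, and 73 genes were above the mean of the 4 pups. Over mouse genes the same median ratio was 0.995, and it ran from 0.892 on the X chromosome to 1.05 on chromosome 17 over 20 mouse chromosomes. Over the 5054 mouse genes within the quartiles of the human means it was 1.02. In replicates 1, 2 and 3 the median ratio of human genes was 0.893, 0.964 and 0.937, which includes replicate 4 in the comparison. Over the 4 stretches of places the median ratio was 1.05, 1.04, 1.25 and 1.32 in replicate 4 and 0.884, 0.921, 0.943 and 1.02 in replicate 3. In replicate 1 it was 0.943, 0.914, 0.90 and 0.814, and in replicate 2 it was 1.04, 1.03, 0.941 and 0.817. The last stretch thus had the highest median in replicates 3 and 4 and the lowest in replicates 1 and 2. Each ratio has the other pups in its denominator, so the 4 series are not independent, and a trend along the order is not shown to belong to 1 pup. The excess of replicate 4 in the human sum over the mean of the others was 12397 normalized counts, to which 73 genes added and from which 36 took away. The 10 genes with the largest excess came to 61.7% of this net sum, led by the genes at places 21 and 76. With 1 animal, a shift of this kind cannot be tested. The part of depth and of the wider spread of this library in it was not tested. In a bulk sample, more cells that express a gene and more RNA per cell cannot be told apart.

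**Figure D3:**
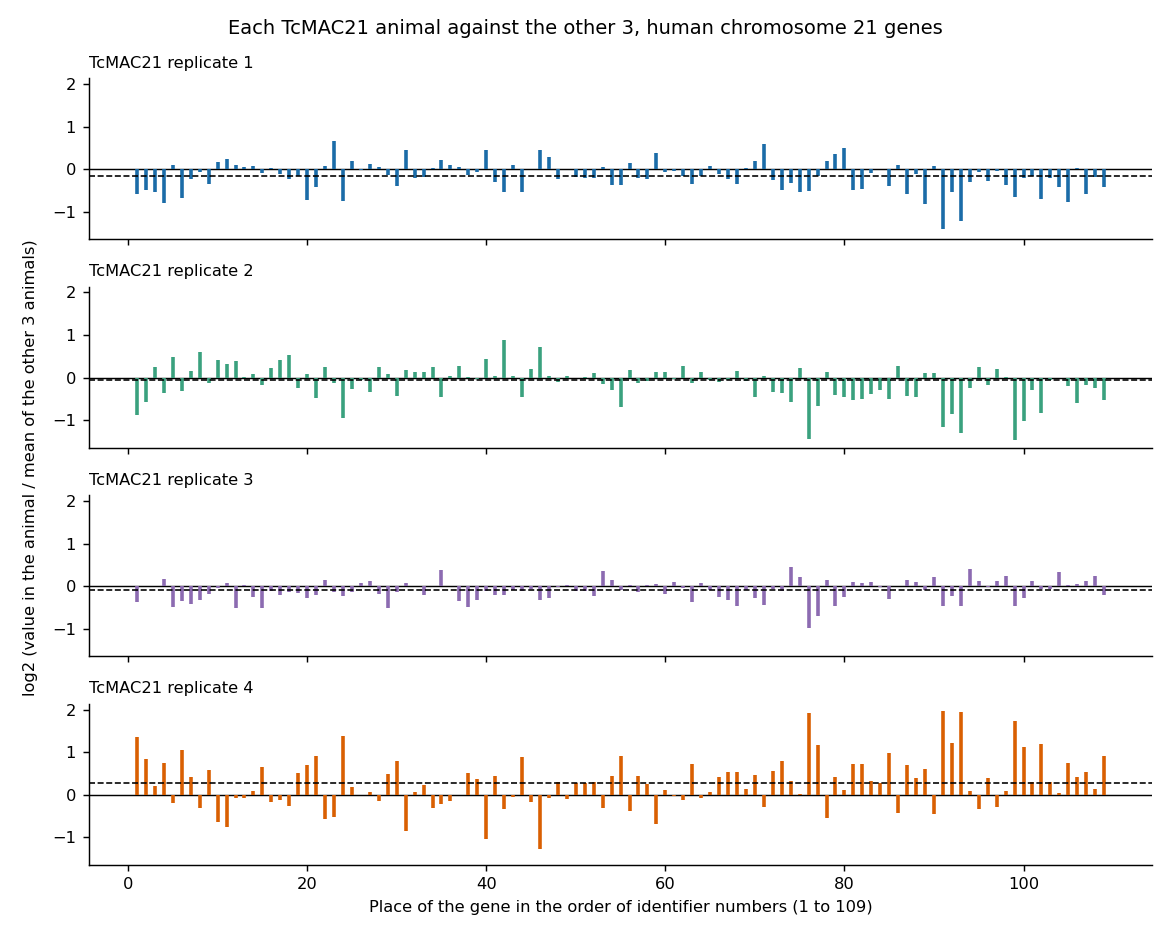
log2 ratio of each TcMAC21 pup to the mean of the other 3 pups, 1 panel per pup, for the 109 human genes in the order of their identifier number. The dashed line is the median over genes, which corresponds to a ratio of 1.22 in replicate 4, where 73 of the genes lie above the mean of the other pups.

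Signal on the human genes in the 12 libraries without the human chromosome was low but not 0. These libraries held 2998 reads on the 109 genes in all, from 92 to 454 per library. The summed normalized count was 0.44% ± 0.107 (SD over 12 libraries) of the TcMAC21 mean. In TcMAC21 each gene was above its highest value in any of the 12 libraries, by at least 6.40-fold in the lowest TcMAC21 pup. For the test by limma, 108 of the 109 genes reached a mean of 10 normalized counts over TcMAC21 and euploid littermates, and all 108 were called higher in TcMAC21, at a largest adjusted p of 7.35e-05. Of the 13523 genes tested in this cross 0.799% were called higher (adjusted p under 0.05), and in 2.8% every TcMAC21 pup was above every littermate. Of the 108 genes, 105 reached the minimum only through the TcMAC21 pups, and 3, at places 33, 45 and 62, reached it through the euploid littermates as well. These counts follow from the design and are no further evidence. With the replicate number as a block, limma called 241 genes in this cross, 137 of them higher in TcMAC21, against 110 and 108 without it, and the human calls were 108 in both. Only place 42 was under the minimum. On the recovered reads, edgeR called 110 genes of this cross and DESeq2 127, with 108 human genes in each.

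For most genes this background followed the TcMAC21 level. It was under 0.5% of the TcMAC21 mean for 101 of the 109 genes, with a median of 0.138%, and the background mean was under 1 normalized count for 82 genes. Across genes, background and TcMAC21 means correlated with a Spearman's rho of 0.806, given as a description since these libraries were prepared in the same study and share the mapping. The gene at place 13 had the largest TcMAC21 count, and its background of 9.87 normalized counts was 0.139% of it. For 10 genes, 0 reads were counted in all 12 libraries, and 36 further genes had 1 to 3 reads in all. Against a limit of 3 reads over the 12 libraries, at the largest value of 1 read, TcMAC21 was at least 34.2-fold higher for the gene at place 42 and at least 226-fold higher for the gene at place 93, the lowest and highest of these 10 bounds. Place 93 was also among those most variable between TcMAC21 pups. It had 280.38 in replicate 4 against 59.99 to 96.72 in the other pups, so its bound and rank lean on that pup.

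**Figure D4:**
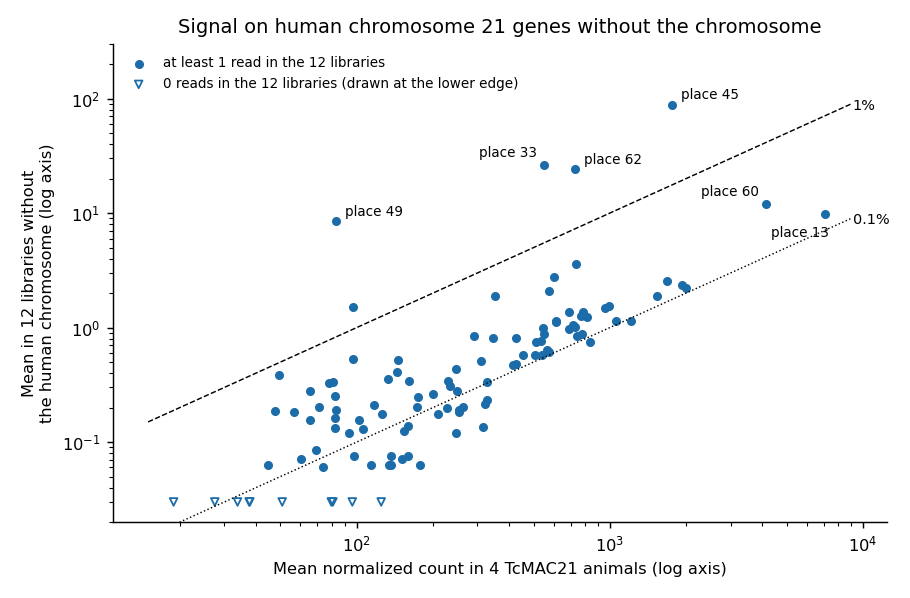
Mean normalized count in the 12 libraries without the human chromosome against the mean in 4 TcMAC21 pups, 1 point per human gene, both log axes, with lines at 1% and 0.1% of the TcMAC21 mean. Most genes lie near the lower line, while the genes at places 45, 33, 62, 49 and 73 stand above the upper one (place 73 is not labelled), and 10 genes without reads are drawn as triangles at the lower edge.

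A small group of genes departed from this. The background exceeded 1% of the TcMAC21 mean for 5 genes, at places 33, 45, 49, 62 and 73. The share was largest, 10.3%, for the gene at place 49, which had a mean of 8.49 over the 12 libraries and reads in each of them. The gene at place 45 had the largest background in normalized counts, 88.6 on average, or 5.03% of its TcMAC21 mean. It alone took 38.5% of all background, and the 5 genes with the highest background, at places 45, 33, 62, 60 and 13, took 70.1%. With these 5 genes left out of both the background and the TcMAC21 sum, the background was 0.181% of the TcMAC21 mean. By limma, the log2 fold change of TcMAC21 over euploid littermates was smallest at place 49, at 3.38 (standard error 0.278), followed by places 33, 45 and 62 at 4.12, 4.17 and 4.74. How much of the TcMAC21 count of these genes is signal of the same kind was not tested. Place 49 was also among the steadiest between TcMAC21 pups.

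Since neither Ts65Dn pups nor euploid pups carry the human chromosome, the signal on human genes was also compared between groups without the chromosome. The Ts65Dn and the TcMAC21 littermates each enter 2 of the 3 comparisons. The human sum was 264, 234, 168 and 188 in Ts65Dn replicates 1 to 4 and 188, 179, 203 and 215 in their euploid littermates. The groups overlapped, with means of 214 ± 43.6 and 196 ± 16.1 (SD, n = 4 each; two-sided exact permutation test, p = 0.486, adjusted p = 0.486). Leaving out single animals moved the difference of 17.5 normalized counts to between 0.655, without Ts65Dn replicate 1, and 32.7.

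Of the 4 human genes that reached a mean of 10 in the Ts65Dn cross, 0 passed an adjusted p of 0.05 by limma, edgeR or DESeq2, and 1 had an unadjusted p under 0.05 by each of them. By limma this count was 0 with the replicate number as a block, and 0 without Ts65Dn replicate 1, without Ts65Dn replicate 3 and without euploid replicate 4. Over all 13430 genes of this cross, 0% passed at the adjusted threshold and 17.1% at the unadjusted one by limma, while edgeR called 0 genes and DESeq2 317. The limma count of 0 rested on 1 library, since 3727 genes were called without euploid replicate 1, with 0 human genes among them. By limma, the 1 human gene with an unadjusted p under 0.05 was that at place 62. Its normalized count was 32.9, 22.7, 31.5 and 22.6 in Ts65Dn and 15.8, 18.9, 17.7 and 17.8 in euploid littermates. Every Ts65Dn pup was above every littermate, which held for none of the other 3 genes, while 8.76% of all genes tested separated these groups in either direction. The log2 fold change was 0.60 (standard error 0.235, unadjusted p = 0.0284, adjusted p = 0.254 by limma). For the genes at places 45, 33 and 60 the log2 fold change by limma was 0.30, -0.29 and 0.15, with standard errors of 0.25, 0.332 and 0.369.

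The euploid littermates of TcMAC21 had a higher human sum than those of Ts65Dn on average, 281 ± 64.4 against 196 ± 16.1 (SD, n = 4 each), a 1.43-fold difference that did not pass the test (two-sided exact permutation test, p = 0.0571, adjusted p = 0.0857). Replicates 1, 2 and 3 of the TcMAC21 littermates lay above all Ts65Dn littermates, and replicate 4 lay within their range. Leaving out single animals moved the difference to between 65.0 and 109 normalized counts. Of the 5 human genes that reached a mean of 10 in these 8 animals, at places 13, 33, 45, 60 and 62, 0 passed an adjusted p of 0.05 by limma, edgeR or DESeq2, and 0 had an unadjusted p under 0.05, which became 1 by limma without TcMAC21 euploid replicate 4. Over all 13400 genes tested 0.134% and 14.3% did by limma, while edgeR called 16 genes and DESeq2 462. The 18 genes called by limma became 261 without Ts65Dn euploid replicate 1 and 58 without TcMAC21 euploid replicate 4, and the count was between 3 and 10 without any 1 of the other 6 animals. In none of these fits was a human gene called. The gene at place 45 had 97.4, 143, 89.0 and 69.5 in the TcMAC21 littermates and 47.4, 80.6, 81.8 and 87.2 in the Ts65Dn littermates, with a log2 difference of 0.41 (standard error 0.268, adjusted p = 0.507 by limma).

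**Figure D5:**
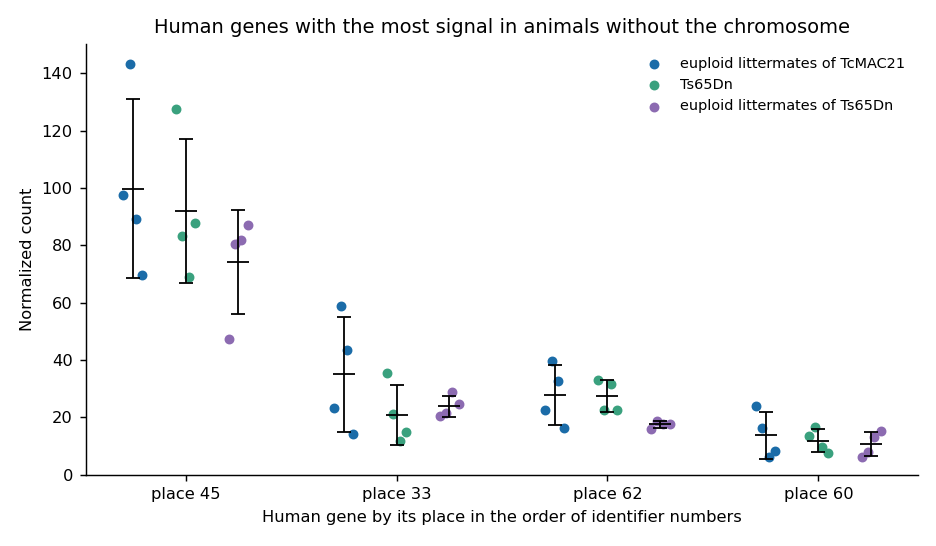
Normalized counts of the 4 human genes with the most signal in the 12 libraries without the human chromosome, by group, with 1 point per animal and bars for mean ± SD (n = 4). The groups overlap for the genes at places 45, 33 and 60, and at place 62 all Ts65Dn points lie above those of their euploid littermates.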

How the data were processed

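RNA-seq libraries of 16 P6 cerebella were analysed. The authors mapped 50 bp paired reads with STAR 2.4.2a to mm39 with human chromosome 21 appended, assembled genes with PsiCLASS and used DESeq2, and the deposited signal is the read count of a gene divided by one size factor per library, rounded to 2 decimals. Within 0.006, 100% of values divided by the worth of 1 read came out whole, which gave back the reads. Genes that reached a mean of 10 normalized counts over the 8 animals compared were tested with limma 3.58.1 on log2(normalized count + 1), a scale that understates the change of low genes, and the recovered reads were fitted with edgeR 4.0.16 (quasi-likelihood) and DESeq2 1.42.0 (R 4.3.3), all with Benjamini-Hochberg adjustment over all genes tested. Each fit was tested on simulated data. Sums were compared by exact permutation tests in Python 3.11.15 with SciPy 1.17.1. As alternatives, another pseudocount (0.1), no filter, a minimum mean of 50, scaling to the library total, all 16 animals in 1 fit, replicate numbers as a block and each animal left out in turn were tried.

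The members and lists were chosen with earlier results of these data known. By rule, the 5 genes highest and lowest in level, in CV, in background and in background as a percent of the TcMAC21 mean, and genes not called in TcMAC21, were named. The genes of the shift in replicate 4 were named after their values were seen. Only chr21.2722 is given by its identifier. In the TcMAC21 cross animals with the same number deviated together from their groups, with correlations over mouse genes of 0.494, 0.497, 0.194 and 0.5. The numbers were read as pairs there only in the alternatives with the replicate number as a block. The main tests treated the animals as unpaired. No pair of libraries was identical.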

Additional observations from a re-analysis of the deposited data

Results flagged for a closer look

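A sample far from the other 3 of its group (Dixon's test at the 95% level) was found for 12 of the 109 human genes in TcMAC21, or 11%. Among 13427 mouse genes in the same pups the share was 11.9%, where chance gives about 5% of groups. Replicate 4 stood above the others for the genes at place 1 (normalized count 926), place 19 (1562), place 21 (2958), place 57 (59.2), place 85 (849) and place 93 (280), and below them at place 78 (420.6). Replicate 2 stood above at place 17 (101) and place 18 (198) and below at place 27 (212). Replicate 3 stood below at place 14 (139.9) and above at place 61 (278). Among the 5 genes with the highest background, looked at in the 3 groups without the human chromosome, 1 further value was apart, that of Ts65Dn euploid replicate 1 at place 45 (47.4, below the other 3). The human sum of no group had such a sample.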

How the results depend on the processing

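Of 89 alternative values, 87 stayed within the limits set. Tested sums had to keep their direction and their side of the threshold, and counts of called human genes had to stay within 1.5-fold. Other values had to move by less than the spread between animals or, for the median CV, than its leave-one-out error of 5.42. At a minimum mean of 50, the human genes tested and called in the TcMAC21 cross fell to 79, which is within these limits. The share of the human sum found in libraries without the human chromosome moved from 0.44% to 0.181% without the 5 genes highest in them. These hold most of that signal and were left out of the TcMAC21 sum as well. The median CV of human genes ran from 12.3% to 20.3% with each TcMAC21 pup left out, the lowest without replicate 4. With the replicate number as a block, 108 human genes were called in the TcMAC21 cross and 0 in the Ts65Dn cross. With it, the paired differences of the human sum were 52108 (exact sign-flip p = 0.125, the smallest that 4 pairs allow) and 17.5 (exact sign-flip p = 0.625). Neither sum passed an adjusted p of 0.05 with or without the block. These say nothing about stability, since the human calls of the TcMAC21 cross follow from the design and 4 pairs cannot pass the threshold. Over all genes of the TcMAC21 cross the block raised the count called from 110 to 241, and in the Ts65Dn cross it lowered the human genes at an unadjusted p under 0.05 from 1 to 0. In the Ts65Dn cross the numbers did not pair the animals. With single animals left out, 107 to 109 human genes were called in the TcMAC21 cross. An exact permutation test of 3 animals against 4 cannot go below p = 0.0571. Genes with few background reads are limited by depth.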
